A study of Mus musculus with 13 samples.

Results

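Lcn2 and 9 genes of neutrophil granules and cytosol (Ngp, S100a8, S100a9, Ltf, Camp, Mpo, Elane, Ctsg and Mmp8) were followed through 13 RNA-seq libraries of mouse oocytes. These 10 of 49585 annotated genes were chosen by their CPM in a single library, replicate 2 of the 0 h samples of 0.5 Gy, where several of them were high. Their level in that library therefore describes the choice, and no test that includes it is read as support. Ovaries of P5 female CD-1 mice had been cultured overnight and given a radiation dose of 0.5 Gy or of 0.2 Gy, and oocytes were taken from trypsin-dissolved ovaries before (0 h) and up to 6 h later. The higher dose had 2 libraries for 0 h, 2 for 1 h, 2 for 4 h and a single one for 2.5 h and for 6 h. The lower dose had a single library for each of these 5 times. The labels place replicate 1 of 0.5 Gy in the first generation, replicate 2 with the 2.5 and 6 h libraries in the second and all 0.2 Gy libraries in the third, so that dose and generation cannot be told apart. All libraries are labelled as oocytes of 1 strain, and what a generation was is not stated. The study's table of read totals has the 1 h and 4 h libraries of the first and second generation the other way round from the labels, and the labels were followed here.

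Neutrophils make their granules in a fixed order while they mature in the bone marrow. Proteins of azurophil granules are made first, at the promyelocyte stage, those of specific granules follow in myelocytes and metamyelocytes, and those of gelatinase granules come in band cells. Transcription of most granule genes has ended in the mature blood neutrophil, which carries the stored proteins, while S100a8 and S100a9 RNA persists. Lcn2 is different in that epithelia and other tissues also make it in inflammation, through NF-kB and C/EBP factors. Its product, lipocalin 2 or NGAL, binds the iron carriers of bacteria.

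The promoters of the 4 members on the specific granule list and of the azurophil member Elane are shown because these genes stood together in the library named above. C/EBP factors and PU.1 are known regulators of granule genes. The sequences are from RefSeq on GRCm38.p6, run 5′ to 3′ on the gene's strand and cover 250 bases before and 50 after the annotated start. Capitals mark the C/EBP core TTNNGNAA and the PU.1 core GAGGAA on either strand, and no matches of these motifs overlap in the windows shown. The windows lie at chr2:32387690-32387989 (minus strand) for Lcn2, chr9:110419558-110419857 (plus) for Ngp, chr9:111019042-111019341 (plus) for Ltf, chr9:109849407-109849706 (minus) for Camp and chr10:79886062-79886361 (plus) for Elane.
Lcn2: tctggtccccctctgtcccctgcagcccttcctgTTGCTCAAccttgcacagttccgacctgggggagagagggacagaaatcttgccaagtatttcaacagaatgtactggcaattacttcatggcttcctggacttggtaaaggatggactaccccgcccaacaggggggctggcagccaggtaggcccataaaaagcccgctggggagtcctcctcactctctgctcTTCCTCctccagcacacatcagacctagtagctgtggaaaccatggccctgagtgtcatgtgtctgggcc
Ngp: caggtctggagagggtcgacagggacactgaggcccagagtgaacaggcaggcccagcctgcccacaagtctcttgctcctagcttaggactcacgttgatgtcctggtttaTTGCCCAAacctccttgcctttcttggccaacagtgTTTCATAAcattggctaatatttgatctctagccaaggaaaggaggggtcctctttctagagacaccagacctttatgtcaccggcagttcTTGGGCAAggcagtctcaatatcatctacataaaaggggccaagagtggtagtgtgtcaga
Ltf: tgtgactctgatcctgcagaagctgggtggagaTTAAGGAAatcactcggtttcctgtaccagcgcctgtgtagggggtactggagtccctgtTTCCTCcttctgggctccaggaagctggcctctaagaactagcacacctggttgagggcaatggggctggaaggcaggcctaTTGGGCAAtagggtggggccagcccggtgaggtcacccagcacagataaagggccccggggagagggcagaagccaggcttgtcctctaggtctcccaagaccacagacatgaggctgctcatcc
Camp: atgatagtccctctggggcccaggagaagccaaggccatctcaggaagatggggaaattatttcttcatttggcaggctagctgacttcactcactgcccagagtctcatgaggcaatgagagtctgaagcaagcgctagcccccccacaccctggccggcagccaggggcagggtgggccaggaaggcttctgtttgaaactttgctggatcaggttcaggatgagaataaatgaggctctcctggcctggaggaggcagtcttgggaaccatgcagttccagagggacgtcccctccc
Elane: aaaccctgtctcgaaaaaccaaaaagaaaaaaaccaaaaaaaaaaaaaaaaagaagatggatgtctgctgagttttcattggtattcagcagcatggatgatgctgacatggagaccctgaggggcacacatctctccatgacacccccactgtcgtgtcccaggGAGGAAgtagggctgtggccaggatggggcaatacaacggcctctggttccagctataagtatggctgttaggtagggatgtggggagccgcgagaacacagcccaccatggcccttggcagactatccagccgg

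All 10 members had a promoter in the table. The C/EBP core stood in 6 of the 10 windows (Lcn2, Ngp, S100a8, S100a9, Ltf and Mmp8), against 40.7% of all 32851 windows of this length. In Ngp it occurred at -138, -102 and -11 relative to the start, and in Lcn2 at -216. The PU.1 core was found in 7 windows (Lcn2, S100a8, Ltf, Mpo, Elane, Ctsg and Mmp8), against 28.3% of all windows. The TATA letters TATAAA stood in 4 (S100a8, S100a9, Ctsg and Mmp8), against 13.6%, and the NF-kB consensus in 0 of 10, against 4.51%. A match of letters is a description, and Camp, with none of these matches, was among the genes highest in the library.

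The authors estimated reads per transcript with salmon, and these were summed here per gene and given as CPM after TMM normalization. The libraries held 15653214 to 30295767 reads on genes, with the fewest in replicate 2 of 0 h of 0.5 Gy. A floor of 3 reads was set, which corresponds to 0.203 CPM in that library. Intervals below are exact Poisson intervals of 95% and cover counting error only. The oocyte list summed to 4807 CPM in replicate 2 of 0 h of 0.5 Gy, within the 3446 to 5515 of the other 12. Granulosa genes summed to 1242 CPM or more and stroma genes to 1843 CPM or more in each of the 13. Genes of other ovarian cells were thus measured in all of them.

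The 10 members together held 6961 reads or 469.9 CPM in replicate 2 of 0 h, which was 0.0445% of its reads on genes. In the other 12 libraries the sum lay between 6.33 and 17.8 CPM, and replicate 1 of 0 h had 7.92. Of the reads on members, 36.6% belonged to Ngp, 28.2% to S100a8, 12.4% to Ltf, 10.6% to S100a9 and 6.54% to Camp. Lcn2 held 3.56%, Mpo 1.09% and Elane 0.876%. In these bulk samples, fewer cells of a type and less RNA per cell cannot be told apart.

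Of the azurophil granule genes among the members, Mpo and Elane were highest in that library and Ctsg was not. Mpo encodes myeloperoxidase (GRCm38, chromosome 11, 87793581 to 87804413). There were 76 reads of it or 5.13 CPM (4.04 to 6.42) in replicate 2 of 0 h and 23 reads or 0.930 CPM in replicate 1. The 1 h pair of 0.5 Gy had 0.0811 and 0.149 CPM, the 2.5 h library 0.188, the 4 h pair 0.117 and 0.0759 and the 6 h library 0.263. After 0.2 Gy it had 0.263, 0.485, 0.148, 0.223 and 0.401 CPM from 0 to 6 h. By CPM, both 0 h libraries of 0.5 Gy were thus the highest of the 13, although they differed from each other by 5.52-fold (3.42 to 9.22). By TPM this did not hold, as replicate 1 had 0.200 and the 1 h library of 0.2 Gy 0.319. Of the 30-nt sequences of Mpo, 12.2% also occur in other genes. Elane, the gene of neutrophil elastase on chromosome 10 (79886247 to 79888215), had 61 reads or 4.12 CPM in replicate 2 of 0 h and 0 reads in replicate 1. In the other 12 libraries it had at most 6 reads, 8 of them with 3 reads or fewer. Ctsg, which encodes cathepsin G of the same granules and lies on chromosome 14 (56099881 to 56102574), had 2 reads in each 0 h library of 0.5 Gy and between 1 and 7 in the 11 remaining ones. The azurophil genes that are not members were also highest in replicate 2 of 0 h by CPM. Prtn3 (proteinase 3) had 2.30 CPM against at most 0.977 elsewhere, Ms4a3 1.08 against 0.689 and Prss57 0.878 against 0.569. These levels rest on 34, 16 and 13 reads. By TPM, Prss57 had 0.136 in that library and up to 0.194 elsewhere.

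The 4 members on the specific granule list had the higher levels. Ngp encodes neutrophilic granule protein and lies on chromosome 9 from 110419747 to 110423012. It had 2549 reads or 172 CPM (165 to 179) in replicate 2 of 0 h. Replicate 1 of 0 h had 1.37 CPM, the 1 h pair 5.11 and 3.47, the 2.5 h library 1.73, the 4 h pair 4.01 and 2.31 and the 6 h library 0.714. After 0.2 Gy it had 1.17, 2.70, 1.48, 2.90 and 0.601 CPM at the 5 time points. No other library came within 33.7-fold (28.2 to 40.6) of that value, and the nearest was replicate 1 of 1 h.

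Ltf, the gene of the iron-binding lactoferrin on chromosome 9 (111019271 to 111042767), had 864 reads or 58.3 CPM in replicate 2 of 0 h and between 0.361 and 3.64 elsewhere, with a median of 1.83. Camp, which encodes the antimicrobial cathelicidin, lies on the same chromosome from 109847379 to 109849617. It had 455 reads or 30.7 CPM there and a median of 0.560 elsewhere, from 0.0379 at 4 h of 0.5 Gy to 2.09 at 1 h. Both genes were more than 10 times above every other library, Ltf by 16.04-fold and Camp by 14.7-fold (11.1 to 19.8). Chil3, a chitinase-like protein of the same granules and no member, had 34.4 CPM against at most 1.57, but 42.5% of its 30-nt sequences also occur in related genes such as Chil4. Cd177 and Itgb2l, surface proteins of these granules, ranked 6 and 5 among the 13 libraries in that library, at 16.6 and 1.01 CPM.

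Lcn2 lies on chromosome 2 from 32384633 to 32388252. It had 248 reads or 16.7 CPM (14.7 to 18.96) in replicate 2 of 0 h and 24 reads in replicate 1. The 1 h pair of 0.5 Gy had 15 and 17 reads, the 2.5 h library 8, the 4 h pair 37 and 8 and the 6 h library 8. The libraries of 0.2 Gy had 42, 22, 12, 5 and 10 reads in order of time, or 1.23, 0.667, 0.444, 0.186 and 0.401 CPM. The level in replicate 2 of 0 h was 11.6-fold (8.20 to 16.9) that of the next library, replicate 1 of 4 h. Among the remaining 12 libraries that one, the 0 h library of 0.2 Gy and replicate 1 of 0 h were the highest and had overlapping intervals (1.02 to 1.99, 0.885 to 1.66 and 0.622 to 1.44 CPM).

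The reads of Lcn2 were divided among its transcripts differently in that library. In replicate 2 of 0 h, 98.5% of them were assigned to the main coding transcript, the longest of the gene that is annotated as coding. In the other 12 libraries this transcript had between 0 and 22.5 estimated reads, a median of 8.94% of the reads of the gene and at most 61.6%. There, 60.4% of the 208 pooled reads were assigned to transcripts that are not annotated as coding, 3 with a retained intron and 1 processed transcript, against 1.45% in replicate 2 of 0 h. The plot of Lcn2 transcripts shows 6 of these 12 libraries without any read on the main coding transcript. The shares in those 12 rest on 5.3 to 41.7 reads a library and on salmon's division of reads among overlapping transcripts. None of the 30-nt sequences of Lcn2 occurs in another gene.

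**Figure D1:**
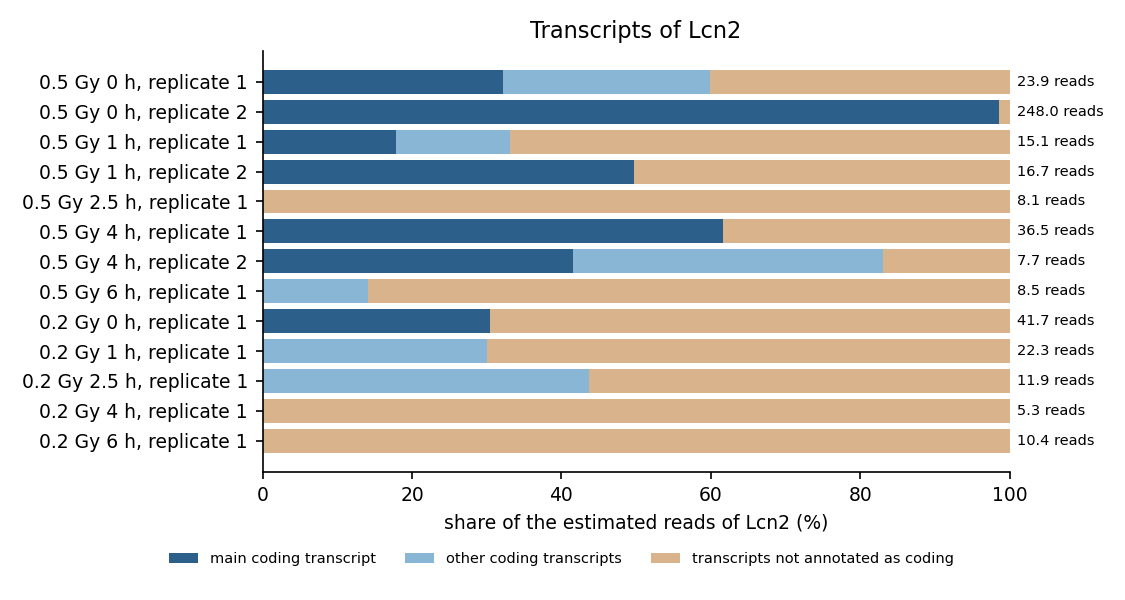
Share of the estimated reads of Lcn2 (%, horizontal axis) on the main coding transcript, on the other coding transcript and on transcripts not annotated as coding, for each of the 13 libraries, with the number of reads at the right. Replicate 2 of 0 h has 98.5% on the main coding transcript, and the highest share in another library is 61.6%.

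S100a8 and S100a9 encode the subunits of calprotectin, an abundant cytosolic protein of neutrophils, and lie next to each other on chromosome 3 (90668978 to 90670035 and 90692632 to 90695721). S100a8 had 1961 reads or 132 CPM (127 to 138) in replicate 2 of 0 h and 1.17 in replicate 1. The 1 h pair of 0.5 Gy had 5.68 and 3.62 CPM, the 2.5 h library 2.10, the 4 h pair 2.84 and 2.998 and the 6 h library 2.37. After 0.2 Gy it had 3.57, 2.79, 1.89, 2.45 and 4.53 CPM. The 2 libraries of 0 h were thus the highest and the lowest of the 13. S100a9 had 50.0 CPM in replicate 2 of 0 h, was lowest in replicate 1 as well (0.849) and reached at most 3.49 elsewhere, in replicate 1 of 1 h. The reads of S100a8 were 2.65 times those of S100a9 in replicate 2 of 0 h, and the ratio lay between 1.00 and 2.69 in the other libraries.

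Mmp8, neutrophil collagenase, is the member of the gelatinase granules by the list used here and lies on chromosome 9 from 7558456 to 7568485. Its granule type was taken from that list and was not tested. It had 4 reads or 0.270 CPM in replicate 2 of 0 h and ranked 8 among the 13 libraries there. Counted with the specific granules instead, Mmp8 would stand below the 4 members on the specific granule list in that library. It was highest at 1 h of 0.5 Gy, with 28 and 81 reads or 1.14 and 3.02 CPM, and had between 3 and 19 reads in the other 10. The 1 h libraries were thus above the rest for this gene, in both replicates, and below replicate 2 of 0 h for the other members that were high.

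**Figure D2:**
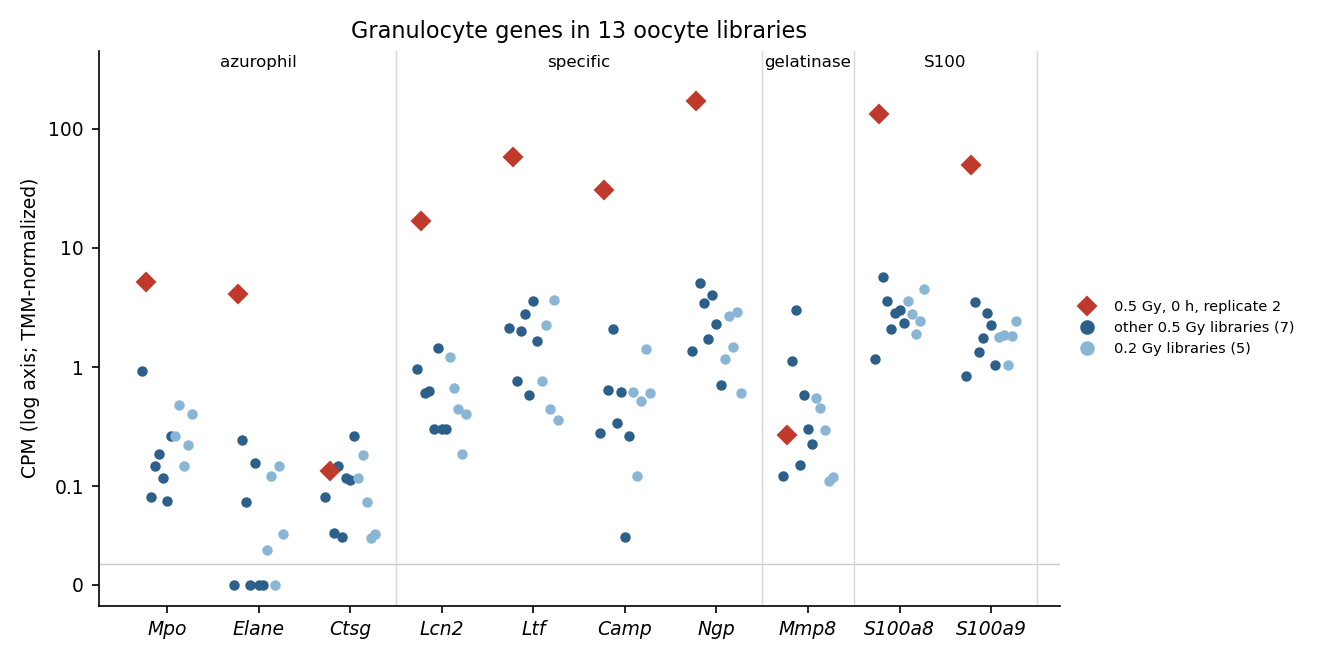
CPM (log axis, values of 0 drawn at the bottom) of the 10 members, in order of granule type, with 1 point per library and replicate 2 of 0 h of 0.5 Gy as a red diamond. The diamond stands above all other points for 8 genes, from 4.12 CPM for Elane to 172 for Ngp, and among them for Ctsg and Mmp8.

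For each gene the log2 CPM in replicate 2 of 0 h was set against the highest of the other 12 libraries. That library was the highest for 8 of 10 members, where 11.1% of the 31254 genes tested had their highest value in it. By more than 4 times, which is 2 on the log2 scale, it exceeded the next library for 8 of 10 members and for 0.118% of all genes, or 37 of them. Since this contrast chose the members, nothing is read from these shares. Just inside the limit stood Mpo with 2.37 and far outside stood Mmp8 with -3.16. Ctsg had too few reads to enter, and 7 of the first 10 genes in this order were members, led by Ngp with 5.05 and S100a8 with 4.53.

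**Figure D3:**
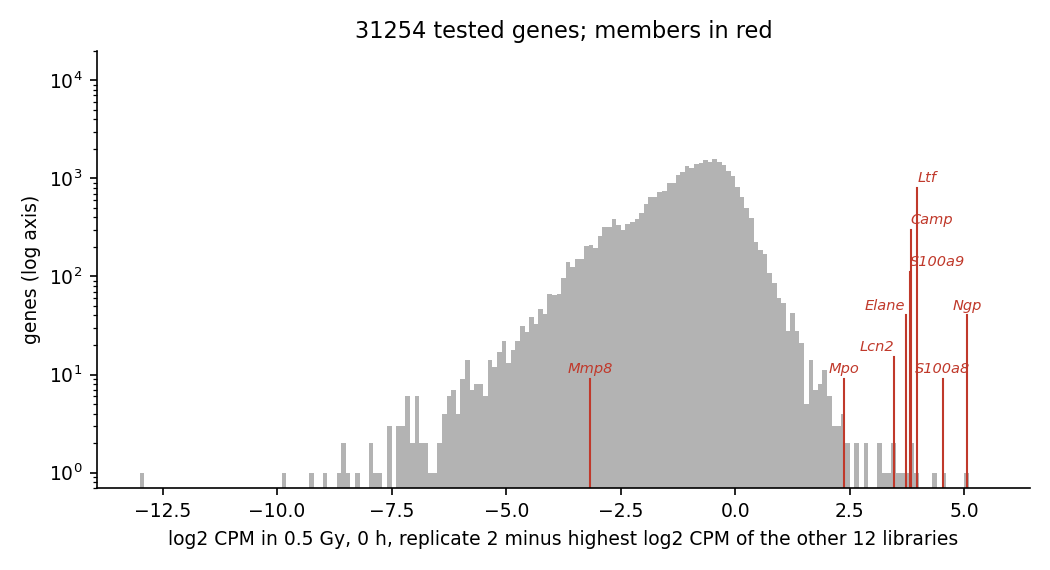
Histogram of 31254 genes (log count axis) by log2 CPM in replicate 2 of 0 h minus the highest log2 CPM among the other 12 libraries, with members as red lines, whose heights only keep the names apart. Ngp lies farthest to the right at 5.05, Mpo at 2.37 and Mmp8 at -3.16.

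The stage lists were then compared by length, in TPM, within replicate 2 of 0 h. The 6 azurophil genes summed to 7.86 TPM and the 7 specific granule genes to 439 TPM, a ratio of 55.9. The median ratio in the other 12 libraries was 11.8, the highest 28.4. Ltf had 203 TPM there, of which 127 came from an annotated fragment of 233 nt. Counted as reads per kb of the longest coding transcript, a scale chosen after the data were seen, the ratio was 25.5 against at most 15.2 elsewhere. Ngp had 141 CPM per kb on this scale, Camp 40.5, Chil3 22.3, Ltf 21.3 and Lcn2 18.3, while Elane had 4.18, Prtn3 2.24 and Mpo 1.87. Cd177 had 6.12 and Itgb2l 0.361, so 6 of the 7 specific granule genes stood above each azurophil gene per length in that library. Itgb2l stood below 4 azurophil genes. Cd177 was not raised there, as its median in the other 12 libraries was 5.54 and its highest value 10.6. By CPM, 5 of the 7 were highest in that library. Without length, as summed CPM, the ratio of 24.2 lay inside the range of the other libraries (6.31 to 26.2), where Cd177 made up most of the specific granule sum. With the members alone the TPM ratio of 59.9 also lay inside the range of the others, whose median was 27.1 and highest value 152.

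Of the later stages, the gelatinase granule list was not high in that library and receptors were high in part. The 5 gelatinase granule genes, with Mmp9 (gelatinase B) and Mmp25 among them, summed to 4.39 CPM in replicate 2 of 0 h, below all other libraries (4.49 to 9.33), and 0 of 5 were highest there. Per length the list had 2.60 TPM, close to the median of 2.53 in the other libraries (1.41 to 3.28). Of the 10 receptors of mature neutrophils, 4 were highest in that library, with Cxcr2, a chemokine receptor, at 3.44 CPM against at most 2.99 and Il1r2 at 7.43 against 6.16. Csf3r, the receptor of the granulocyte growth factor, had 3 reads, and Fpr1 and Fpr2, formyl peptide receptors, 7 and 3. The list summed to 22.8 CPM against at most 16.4 elsewhere. Among transcription factors of granulocytes, Cebpe had 2 reads, Spi1 (PU.1) 1 and Cebpa 8 in that library. Cebpe and Spi1 were thus under the floor of 3 reads, which does not show that they were absent. Gfi1 had 15 reads, Cebpd 2.97 CPM and Gfi1b 3.11 CPM, and Gfi1b alone of the 6 was highest there.

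**Figure D4:**
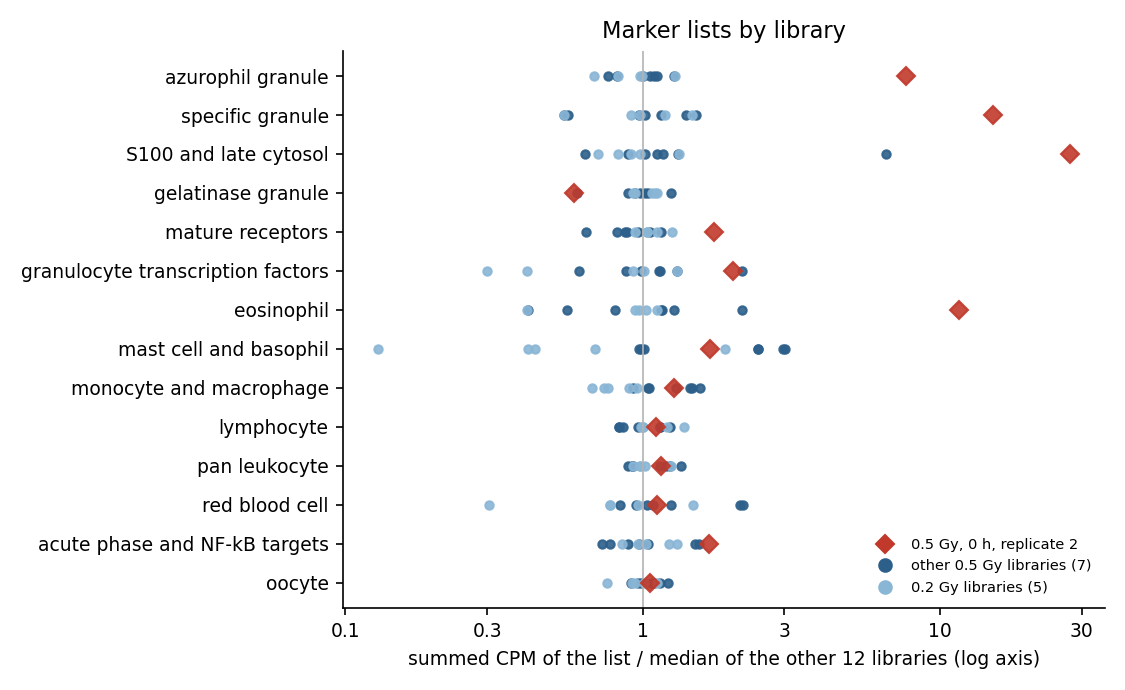
Summed CPM of 14 marker lists divided by the median of the 12 other libraries (log axis), with 1 point per library and replicate 2 of 0 h as a red diamond. The diamond lies at 27.4 for S100 and late cytosol genes, 15.1 for specific granules, 11.6 for eosinophils, 7.69 for azurophil granules and 0.588 for gelatinase granules.

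Markers of other blood cells moved with the members in part. Of 7 eosinophil genes, 6 were highest in replicate 2 of 0 h and the list summed to 27.3 CPM, against 0.965 to 5.09 elsewhere. Prg2, major basic protein of the eosinophil granule, had 17.8 CPM against at most 3.36, Epx (eosinophil peroxidase) 2.70 against 0.714 and Prg3 2.77 against 0.212. Siglecf, the defining surface marker of eosinophils, had 1 read. Red cell genes summed to 3178 CPM, within the 862 to 6188 of the other libraries, and each globin lay inside its range. Genes outside theirs included Slc4a1 (the anion exchanger of red cells) at 21.0 CPM against at most 4.33 and Epb42 at 4.19 against 1.88. The 7 general leukocyte genes summed to 159 CPM (124 to 186 elsewhere), the 12 monocyte and macrophage genes to 100.2 (53.1 to 123) and the 10 lymphocyte genes to 10.7 (7.97 to 13.2), with 0, 2 and 3 of them highest in that library. The part of other blood cells in the level of the members was not tested. The 13 acute phase and NF-kB target genes, which accompany Lcn2 in inflamed tissue, summed to 25.9 CPM (11.3 to 23.9 elsewhere), with Saa3 at 6 reads, Tnf at 2, Cxcl1 at 5.603 CPM and Hp at 4.25. The 3 genes of Lcn2 receptors, Slc22a17, Lrp2 and Mc4r, summed to 20.0 CPM, below all other libraries (23.8 to 45.5).

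Among protein-coding genes outside the members, the 15 with the largest excess of replicate 2 of 0 h over all other libraries were Chil3, Hemgn, Car2, Stfa2l1, Prg3, Foxa2, Rhag, Ptchd1, Gm5483, Fcnb, Cldn13, Ermap, Tekt1, Ctse and Prg2. Fcnb, ficolin B of myeloid cells, had 1.96 CPM against at most 0.205. Hemgn (hemogen), Rhag (the Rhesus-associated glycoprotein) and Ermap belong to red cell precursors and had 23.4, 15.7 and 10.8 CPM against at most 1.78, 1.75 and 1.70. Foxa2, a factor of endoderm, and Tekt1, a protein of cilia, had 6.68 and 16.2 CPM, against at most 0.631 and 2.83.

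The likeness of patterns over all 13 libraries was lower without that library. Pearson's r of log2 CPM with Lcn2 was highest for Esco1 (0.911), Klra5 (0.904), Rhag (0.904), Dynlt3 (0.896) and Cybb (0.880), and without replicate 2 of 0 h it was 0.695, 0.687, 0.609, 0.6996 and 0.666. For the mean of the other members it was highest for Hemgn (0.915) and Ptchd1 (0.914). Among the 36 pairs of the 9 members with enough reads, the median r was 0.70 over 13 libraries and 0.19 over the other 12, where 6 pairs exceeded 0.5. Without Elane, which had at most 6 reads in those 12 libraries, the median over 28 pairs was 0.69 and 0.083, and 3 pairs exceeded 0.5 among the 12. The points share depth and generation, and most of these counts are small.

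With that library kept apart, no member was called between late and early times. The late libraries of 0.5 Gy (from 2.5 h on) were set against the early ones (0 h and 1 h) in 1 quasi-likelihood model of edgeR that held the 13 libraries. With pooled time points as groups, the spread includes changes over time. By the labels the early libraries were mostly of the first generation and the late ones mostly of the second. Time and generation can therefore not be fully told apart in this comparison. Calls needed a p under 0.05 after Benjamini-Hochberg adjustment and a log2 change over 1 in size. Of the 10 members, 9 passed the filter on low counts, Elane through replicate 2 of 0 h alone. Among these 9, 0 were called, where 0.0576% of the 31254 genes tested were called. An unadjusted p under 0.05 was found for 1 of the 9 and for 2787 of the 31254 genes. Without Elane, which had at most 6 reads in the libraries compared, the median log2 fold change of 8 members was -0.52, with 2 higher and 6 lower, and that of all genes was -0.01. DESeq2 called 0 members as well, against 0.486% of all genes, with an unadjusted p under 0.05 for 2 members and 2948 of all genes.

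The largest difference was that of Mmp8, which was lower late by -2.16 on the log2 scale (edgeR, standard error 0.78, adjusted p = 0.462). Camp followed with -1.67 (edgeR, standard error 0.79, adjusted p = 0.567) and Lcn2 had -0.33 (standard error 0.60). Ngp had -0.60 (standard error 0.60), S100a8 -0.44 (standard error 0.41), S100a9 0.07 (standard error 0.47) and Ltf 0.39 (standard error 0.72). Single libraries moved these values. Mmp8 had -0.98 without replicate 2 of 1 h, and Camp had -0.56. Without replicate 1 of 4 h, Lcn2 had -1.28 and Ngp -1.06, while Lcn2 had -0.08 without replicate 1 of 0 h and Ngp -0.14 without replicate 1 of 1 h. The median over the 8 members was -0.29 without replicate 1 of 1 h and -1.09 without replicate 1 of 4 h.

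The lower dose was treated alike, with its last 2 times (4 h, 6 h) against its first 2 (0 h, 1 h). The median over the 8 members other than Elane was -0.0022 on the log2 scale, with 4 higher and 4 lower. With edgeR 0 of 9 were called, against 0.064% of all genes. An unadjusted p under 0.05 was found for 0 of 9 and for 2614 of all genes. Lcn2 was lower late by -1.68 (standard error 0.83, adjusted p = 0.617 by edgeR). It had 42 and 22 reads at 0 and 1 h and 5 and 10 at 4 and 6 h. Ngp differed by -0.14 (standard error 0.80) and S100a8 by 0.13 (standard error 0.54). DESeq2 called 0 members, against 0.37% of all genes, with an unadjusted p under 0.05 for Lcn2 and for 2757 of all genes. Whether the change differed between doses was not tested.

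**Figure D5:**
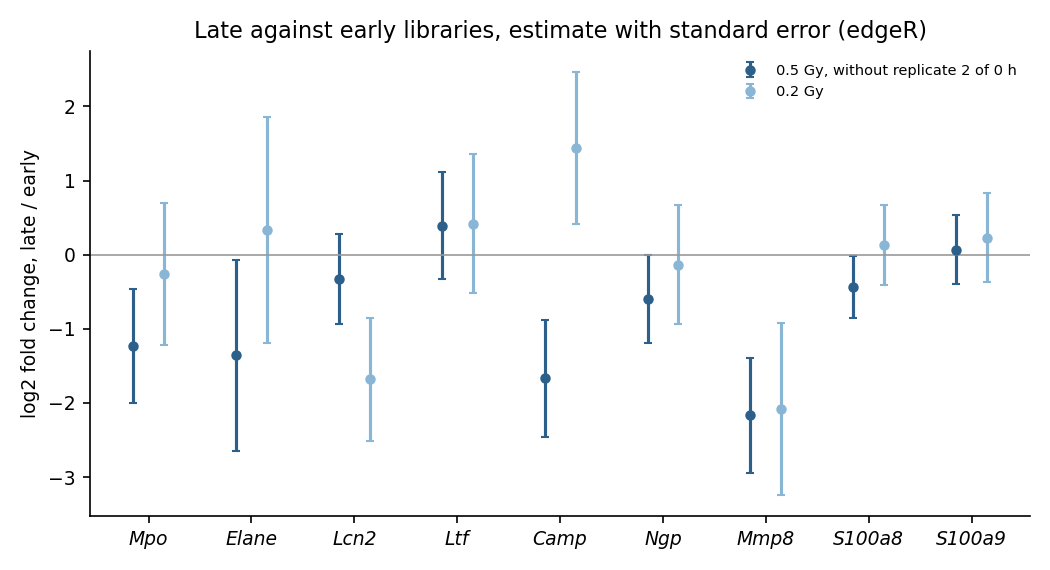
Log2 fold change of late against early libraries with its standard error from edgeR for the 9 members that passed the filter, Elane included, at 0.5 Gy without replicate 2 of 0 h and at 0.2 Gy. At 0.5 Gy 7 of 9 estimates lie below 0, at 0.2 Gy 4 of 9.

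The early libraries of 0.2 Gy were also set against those of 0.5 Gy, again without replicate 2 of 0 h. Here 0 of 9 members were called by edgeR, against 0.189% of all genes, and 0 by DESeq2, against 1.14%. With edgeR, 0 members and 5051 of all genes had an unadjusted p under 0.05. The median over the 8 members other than Elane was -0.13, with 1 higher and 7 lower, and all genes had a median of 0.07. It was -0.62 without the 1 h library of 0.2 Gy, -0.45 without replicate 1 of 0 h and -0.37 without replicate 1 of 1 h, the last 2 with 3 higher and 5 lower. Lcn2 differed by 0.36 (standard error 0.70), Ngp by -0.78 (standard error 0.73) and S100a8 by -0.13 (standard error 0.49). Dose and generation are the same split of the libraries in this comparison.

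Against 0 h with both replicates as the reference, which includes the library that chose the members, the median log2 fold changes of members were -3.81, -4.84, -4.50 and -4.78 for 1 to 6 h in order of time. The 4 comparisons share the 0 h libraries, the 2.5 h and 6 h sides are 1 library each, and the counts below follow from how the members were chosen and are given as a description. With edgeR 0 members were called at each time, against 0.0% of 28468 genes. Mmp8 had 3.46, -0.29, 1.24 and 0.30 in order of time and was the member that was higher at 1, 4 and 6 h, whereas all 9 were lower at 2.5 h. DESeq2, run with a beta prior, called Lcn2 and Mpo at all 4 times, where 0.0431%, 0.179%, 0.267% and 0.3% of all genes were called. With replicate 1 of 0 h as the only reference the medians became 1.60, 0.35, 0.74 and -0.18, and DESeq2 called 0 members against 0.108%, 0.314%, 0.286% and 0.342%. For Lcn2, edgeR's log2 fold changes were -3.81, -4.84, -3.32 and -4.82 with both libraries and -0.61, -1.64, -0.12 and -1.62 with replicate 1 alone. For Ngp they were -4.33, -5.63, -4.76 and -6.88 with both and 1.67, 0.36, 1.23 and -0.88 with replicate 1 alone. Without replicate 2 of 0 h the direction of Ngp thus turned for 1 h, 2.5 h and 4 h. That of Lcn2 did not with edgeR, while DESeq2 gave 0.03 for Lcn2 at 4 h.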

How the data were processed

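The authors sequenced 13 libraries and estimated reads per transcript with salmon against mouse transcripts of Ensembl. The deposited estimated counts and TPM values come from these files, unnormalized between libraries. The table of normalized values and the lists of significant genes per time, which hold the authors' own comparisons, were not used.

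Estimated counts were summed per gene of the GENCODE annotation of GRCm38 and rounded, which left out 402 transcripts. Depth was 15653214 to 30295767 reads on genes. Analyses used edgeR 4.0.16, DESeq2 1.42.0 and limma 3.58.1 in R 4.3.3, with Python 3.11.15, TMM normalization, filterByExpr at its defaults and a prior count of 2 for log2 CPM. The 13 libraries were fitted in 6 groups, and the 8 libraries of 0.5 Gy by time point. The edgeR fits were also run on simulated counts with large changes in better expressed genes. That run does not show what they can find for genes as low as several members were outside replicate 2 of 0 h. The members, lists and tests were chosen with earlier results of these data known. Genes were named if they were members, on a list, among 15 with the largest excess in replicate 2 of 0 h, or among 10 most like Lcn2 or the other members. The labels do not say whether replicates came from separate animals, so p-values may measure technical spread. Same-numbered libraries of 0.5 Gy deviated from their group means with r of 0.11 (0 and 1 h), 0.07 (0 and 4 h) and 0.10 (1 and 4 h) across genes. Some genes of the marker lists are not reported here.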

Additional observations from a re-analysis of the deposited data

How the results depend on the processing

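Other size factors, no filter on low counts, DESeq2 and a block for the second generation left 0 members called in the 3 comparisons that keep replicate 2 of 0 h apart. Across these settings, 11 to 232 of all genes were called for late against early at 0.5 Gy. At 0.2 Gy it was 22 to 177, and between doses 59 to 547. With so small a share of all genes called, the 0 is not read as a result about the members. Against 0 h, edgeR without a filter called 3 members at 4 h, where 80 of all genes were called. These calls include the library that chose the members and are a description. DESeq2 called 2 for each of the 4 times, and its beta prior gave medians of -0.94, -0.85, -0.95 and -0.88 in order of time. In fits without 1 library, the medians ranged from -4.74 to 1.60 (1 h) and from -5.77 to 0.35 (2.5 h). For 4 h they ranged from -5.49 to 0.74 and for 6 h from -5.75 to -0.18. The upper ends were without replicate 2 of 0 h and the lower ends without replicate 1. With Elane included, the median for late against early at 0.2 Gy, 0.13, ranged from -0.85 (without 4 h) to 0.25. The median between doses, also with Elane, ranged from -0.71 to -0.11. Over the 8 members other than Elane, the median at 0.2 Gy ranged from -0.59 (without 4 h) to 0.24. Between doses it ranged from -0.62 to -0.10 over these 8. Without 1 library, log2 fold changes of late against early ranged from -0.84 to 0.11 for S100a8 and -0.27 to 0.86 for S100a9 at 0.5 Gy, and from -1.70 to 0.58 for Ngp and -0.38 to 0.48 for S100a8 at 0.2 Gy. At 0.5 Gy they ranged from -2.70 to -0.98 for Mmp8, -2.22 to -0.56 for Camp, -1.28 to -0.08 for Lcn2 and -1.06 to -0.14 for Ngp. Between the early libraries of the doses they ranged from -0.14 to 0.74 for Lcn2 and -0.52 to 0.43 for S100a8. The cause was not tested.

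Same-numbered libraries of 0.5 Gy share a generation by the labels. The low correlations of their deviations cannot decide whether a generation was a batch, as most genes have few reads. With the second generation as a block, Ltf had -0.34 for late against early at 0.5 Gy and Lcn2 -0.13 between doses. In a further fit the generations of the 1 h and 4 h libraries were crossed, as the study's table of read totals has them. S100a9 then had -0.019 for late against early at 0.5 Gy and S100a8 0.075 between doses. Leaving out Elane was chosen after seeing the data. Over all alternatives, 16 log2 fold changes of single members changed sign and 192 did not. The fold of all members over the next library was 26.4 by CPM, 31.3 by TPM and 35.3 without the 1 h libraries of 0.5 Gy among the others, a choice made after seeing the data. The ratio of specific to azurophil genes of 55.9 by TPM was 24.2 by CPM, 25.5 per kb and 44.0 without the most abundant gene of each list. Counts of 3 reads or fewer, as for Ctsg, limit what these libraries can show.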

Other observations

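Stefins, inhibitors of cathepsins that neutrophils carry in their cytosol, were high in 2 libraries for 3 of the 5 listed. Stfa1 had 12.8 CPM in replicate 2 of 0 h of 0.5 Gy and 13.1 in replicate 1 of 1 h, Stfa3 4.73 and 7.18, and BC100530 39.2 and 28.9. Stfa2l1 had 6.08 and 0.487, and Stfa2 1.42 and 0.243, and were thus high in the first alone. The medians of Stfa1, Stfa3 and BC100530 over the 12 libraries other than replicate 2 of 0 h were 0.882, 0.204 and 0.581 CPM. In replicate 1 of 1 h the members on the specific granule list did not stand out in the same way, with 5.11 CPM of Ngp, 0.649 of Camp and 0.770 of Ltf. Of the 30-nt sequences of Stfa1, 45.1% also occur in related genes, so that its reads could have been split, while Stfa3 shares none.

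Cybb, the catalytic subunit of the phagocyte oxidase, had 30.1 CPM in replicate 2 of 0 h against at most 12.1 elsewhere, and Ncf1 4.46 against 3.07. Cyba, its partner subunit, was lowest of all 13 libraries there with 18.6 CPM.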
